A study of Canis lupus familiaris with 11 samples.

Results

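The genes of sterol and fatty acid synthesis were followed in a line of dog kidney epithelium, MDCKII, with and without lamin A, after the cell layer had been squeezed from the sides and left to recover. The group was chosen by name and holds 33 genes: the enzymes that carry acetyl-CoA to cholesterol, the sensors that switch those enzymes on, 3 sterol carriers, and the enzymes that build, lengthen and desaturate fatty acids. The deposited table listed 37 loci for them among 26178 rows, and 34 loci of 32 genes were among the 13560 rows expressed highly enough to test. FADS1, the delta-5 desaturase, had between 0 and 11 reads in each library and was not tested, nor were a second locus matched to HMGCS1 with 0 to 6 reads and a locus on chromosome 8 matched to EBP with 1 to 10 reads.

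Messenger RNA was sequenced in 11 libraries of 4 groups, all grown for 3 to 4 days to a confluent layer in serum-containing medium. There were 3 libraries of LMNA KO cells that were compressed laterally and then recovered for 2 h, 2 of LMNA KO control cells, 3 of WT cells given the same compression and recovery, and 3 of WT control cells. The labels do not say whether the KO line is 1 clone, how the layer was compressed, or whether controls were handled like compressed cells without the squeeze, so compression, handling and recovery cannot be told apart. Nor is it stated that each replicate was grown as its own culture, so the p-values measure only the spread between these libraries. In whole-culture RNA, fewer cells of a kind and less RNA per cell cannot be told apart.

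Cells keep their sterol supply steady by feedback. When membrane cholesterol is low, SCAP escorts the membrane-bound factors SREBP1 and SREBP2 (genes SREBF1 and SREBF2) to the Golgi, where they are cut loose to switch on sterol and fatty acid enzymes; when cholesterol is high, INSIG1 and INSIG2 hold SCAP back. SREBP2 acts mainly on cholesterol genes, and SREBP1 mainly on fatty acid genes such as FASN, SCD and FADS2. INSIG1, HMGCS1 and SQLE are among the well-known targets, so they are widely read as a gauge of the pathway.

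Library totals ran from 10420214 to 17999623 counts. LMNA, the targeted gene, had 25.5 to 51.8 CPM (read counts scaled to library size) in the 5 KO libraries and 679 to 1208 CPM in the 6 WT libraries, which fits their labels. All 10 epithelial marker genes looked up were detected, with a summed level of 6494 to 7834 CPM in KO compressed, 7305 to 7844 in KO control, 6283 to 6505 in WT compressed and 4841 to 8398 in WT control cells, and 1 of their 12 tested loci passed the test in the WT compression comparison. Immune markers summed to at most 12.8 CPM, adipocyte markers to 6.75, endothelial markers to 4.33 and hepatocyte markers to 0.54 in any library, and the fibroblast and smooth muscle markers to 31.8. Libraries also differed in how levels ran with local gene density, the number of genes within 500 kb on either side. Across 13560 genes, Spearman's rho between a library's deviation from the gene mean and this density was between -0.33 and -0.17 in the 3 WT compressed libraries and between 0.06 and 0.43 in the 3 WT controls. In KO cells it was 0.11, -0.37 and 0.13 in compressed replicates 1 to 3, and 0.17 and 0.28 in the controls. Compression and this gradient therefore ran together in WT cells and cannot be told apart by group alone.

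Levels between genes were compared per transcript length, in FPKM (fragments scaled to transcript length and library size). By this measure the highest member in WT control cells was CYP51A1, the lanosterol demethylase, at 247 ± 77.3 FPKM (SD, n = 3). FDPS, which makes farnesyl diphosphate, was at 242 ± 17.5 FPKM (SD, n = 3). SCD, the stearoyl-CoA desaturase, followed at 180 ± 40.7 FPKM, ACLY, which makes cytosolic acetyl-CoA, at 164 ± 28.0 and ACAT2, an acetyl-CoA thiolase, at 137 ± 11.7 FPKM (SD, n = 3). Most neighbours in this order overlapped between libraries. The order also rests on the listed gene lengths, 1524 bases for CYP51A1 and 1266 for FDPS, against 5756 for SCD and 4791 for ACLY. In CPM, which leaves length out, the WT control means were 1042 for SCD and 792 for ACLY. CYP51A1 then had 378 CPM and FDPS 309 CPM. Whether the listed lengths match the transcripts of these cells was not tested. INSIG1, at 68.9 to 161 FPKM in WT controls, stood far above INSIG2, at 9.72 to 13.1 FPKM. SREBF2 had 86.7 to 110 FPKM and SREBF1 45.5 to 78.5 FPKM in the same libraries, with no overlap. The acyl chain elongase ELOVL6 (48.4 to 62.4 FPKM) lay below ELOVL5 (85.6 to 92.4 FPKM). FADS2, the delta-6 desaturase, had 29.7 to 47.1 FPKM, whereas FADS1, which works after it in making long polyunsaturated fatty acids, had at most 0.20 FPKM in a WT control.

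**Figure D1:**
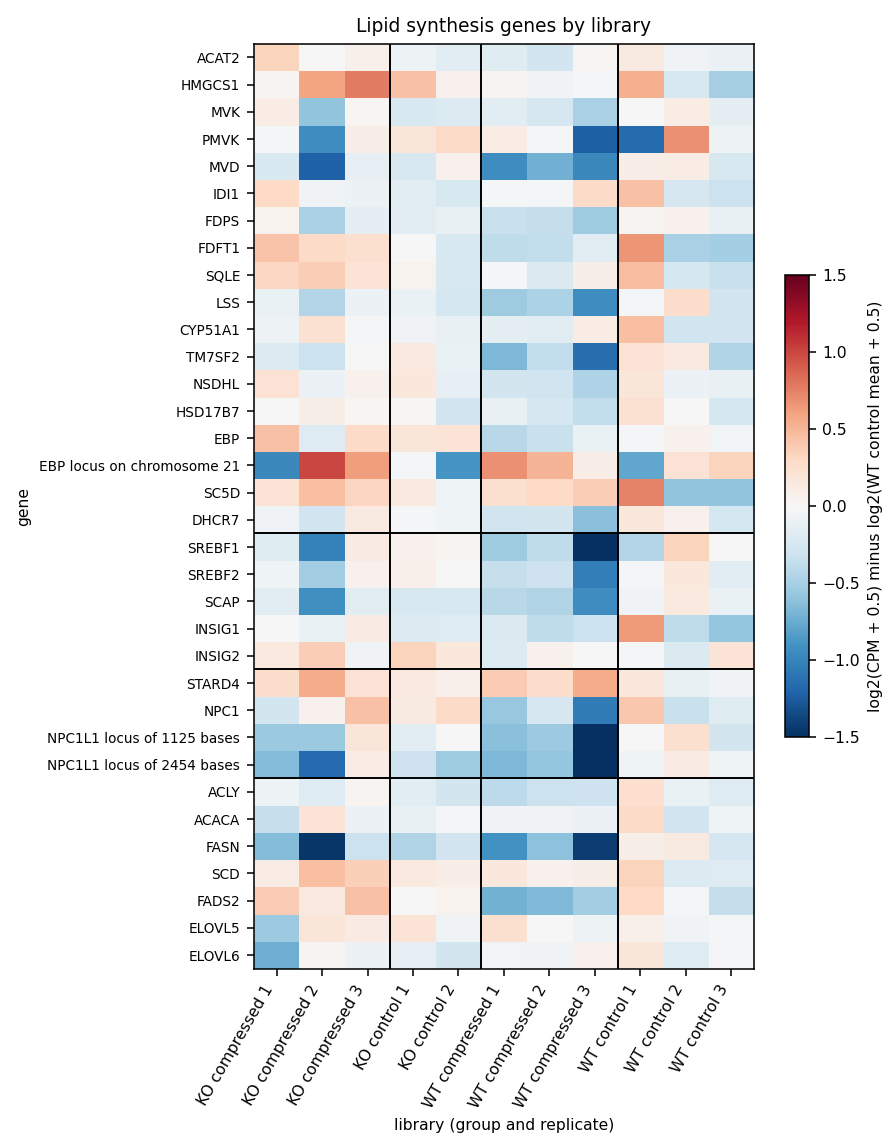
Each row is 1 of the 34 tested loci, grouped by role, and each column 1 of the 11 libraries; colour gives log2(CPM + 0.5) minus that of the mean WT control level. Blue cells gather in the WT compressed columns and in KO compressed replicate 2, where SREBF1 and both NPC1L1 loci are lowest in WT compressed replicate 3 and FASN in KO compressed replicate 2.

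Compression of WT cells was followed by lower levels of FASN, MVD and FADS2, and no member was called higher, where 3.85% of all genes were. These 3 are the fatty acid synthase, the enzyme that makes isopentenyl diphosphate, the building block of sterols, and the delta-6 desaturase. They were 3 of 34 tested loci, all lower, where 2.40% of the 13560 genes were called lower and 6.25% in either direction (edgeR quasi-likelihood test, Benjamini-Hochberg adjusted p under 0.05). Log2 fold changes were below 0 for 28 of the 34 loci, with a median of -0.30, against a median of -0.02 over all genes tested.

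FASN, at chromosome 9 positions 233692 to 249092 of CanFam3.1 on the plus strand, had 303, 371 and 212 CPM in WT compressed cells and 604, 624 and 480 CPM in WT controls. Every compressed library lay below every control. The log2 fold change was -0.95 ± 0.26 (SE, n = 3 and 3; edgeR adjusted p = 0.0479). MVD, the mevalonate diphosphate decarboxylase at chromosome 5 positions 64682715 to 64691632 on the plus strand, had 94.9, 110.3 and 92.9 CPM in WT compressed cells and 195, 197 and 154 CPM in WT controls. Again the groups did not overlap, and the log2 fold change was -0.87 ± 0.24 (SE, n = 3 and 3; edgeR adjusted p = 0.0475). FADS2, at chromosome 18 positions 54552601 to 54581570 on the minus strand, had 60.7, 62.9 and 69.1 CPM in WT compressed cells and 123, 98.0 and 78.0 CPM in WT controls. Its groups did not overlap either, although WT control replicate 3 was close to the highest compressed library, and its log2 fold change was -0.63 ± 0.17 (SE, n = 3 and 3; edgeR adjusted p = 0.0484).

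All 3 adjusted p-values were just under the threshold, and none of the 3 calls remained when any 1 of the 6 WT libraries or of the 2 KO controls was left out. Without KO compressed replicate 2, 9 of the 34 members were called, but so were 3066 of all 13500 genes tested in that fit. Over the 11 fits that each left out 1 library, the edgeR adjusted p ran from 0.0084 to 0.207 for FASN, from 0.00592 to 0.199 for MVD and from 0.0172 to 0.190 for FADS2, while their log2 fold changes stayed below 0. All 3 were called when WT compressed replicate 3 and KO compressed replicate 2 were left out together, at -0.76 for FASN, -0.82 for MVD and -0.69 for FADS2. In that fit 945 of all 13479 genes tested were called. With the trend against local gene density taken out, an alternative chosen, like the last, after seeing the data, the log2 fold changes were -0.56 for FASN, -0.95 for MVD and -0.42 for FADS2, and none was called (edgeR adjusted p = 0.0852, 0.0524 and 0.142).

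The sterol enzymes differed in how far they lay from their controls. Of their 18 loci, 15 had log2 fold changes below 0 and 3 above, with a median of -0.29, against -0.02 over all genes tested. LSS, which closes squalene epoxide into lanosterol, had 121, 126 and 91.9 CPM in WT compressed cells and 172, 210.3 and 144 CPM in WT controls. The groups were apart, but the log2 fold change of -0.63 ± 0.18 missed the threshold (SE, n = 3 and 3; edgeR adjusted p = 0.0515). FDPS, DHCR7, NSDHL, MVK and the main EBP locus also had every WT compressed library below every WT control, with log2 fold changes from -0.40 to -0.28. Those 5, with MVD and LSS, made 7 of the 18 sterol enzyme loci whose groups were apart and lower, where 20.8% of all genes were. Nearly level were HMGCS1, the synthase that makes HMG-CoA, and SQLE, the squalene epoxidase. HMGCS1 had 213, 199 and 203 CPM in WT compressed cells and 299.7, 175 and 147 CPM in WT controls, and SQLE had 349, 305 and 377 CPM in WT compressed cells against 488, 295 and 282 CPM in WT controls. In both genes the compressed libraries lay inside the range of the controls, and the log2 fold changes were -0.01 ± 0.24 and -0.05 ± 0.19 (SE, n = 3 and 3).

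Among the regulators all 5 log2 fold changes were below 0 in WT cells, and none passed the test. SREBF1 had 176, 196 and 83.8 CPM in WT compressed cells and 188, 321 and 254.5 CPM in WT controls. Compressed replicate 2 lay above control replicate 1, so the groups overlapped, and the log2 fold change was -0.74 ± 0.32 (SE, n = 3 and 3; edgeR adjusted p = 0.128). SREBF2 had 383, 392 and 238 CPM in WT compressed cells and 478.5, 547 and 438.5 CPM in WT controls; these were apart, at -0.53 ± 0.20 (SE, n = 3 and 3; edgeR adjusted p = 0.0961). SCAP had 85.8, 83.9 and 59.9 CPM in WT compressed cells and 110.3, 127 and 107 CPM in WT controls, also apart, at -0.58 ± 0.21 (SE, n = 3 and 3; edgeR adjusted p = 0.0862). INSIG1 had 294, 261 and 273 CPM in WT compressed cells against 533.5, 262 and 229 CPM in WT controls. Here 1 control library was well above the others, and the compressed libraries were close to the remaining controls.

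Of the sterol carriers, STARD4, which moves cholesterol between membranes, was the only member with every WT compressed library above every control. It had 49.2, 45.1 and 55.7 CPM in WT compressed cells and 41.8, 34.8 and 36.1 CPM in WT controls, a log2 fold change of 0.41 ± 0.17 that did not pass (SE, n = 3 and 3; edgeR adjusted p = 0.112), where 21.2% of all genes had compressed libraries wholly above controls. Both loci of NPC1L1, the intestinal sterol uptake protein, lay wholly below, at -0.89 and -0.94 on the log2 scale, and NPC1, which exports cholesterol from lysosomes, was at -0.59 with overlap. In all, 14 of 34 loci were lower and 1 was higher at an unadjusted p under 0.05, where 16.4% of all genes were lower and 15.4% higher. Loci whose groups did not overlap were also 14 lower and 1 higher, where 20.8% of all genes were lower and 21.2% higher. These were not all the same loci, since SREBF1, NPC1 and TM7SF2 overlapped, and EBP, NSDHL and MVK took their place. Among fatty acid enzymes, SCD, ELOVL5 and ELOVL6 were within 0.11 of 0 on the log2 scale. SCD had 1162, 1089 and 1109 CPM in WT compressed cells and 1316, 901 and 908 CPM in WT controls, with overlap.

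**Figure D2:**
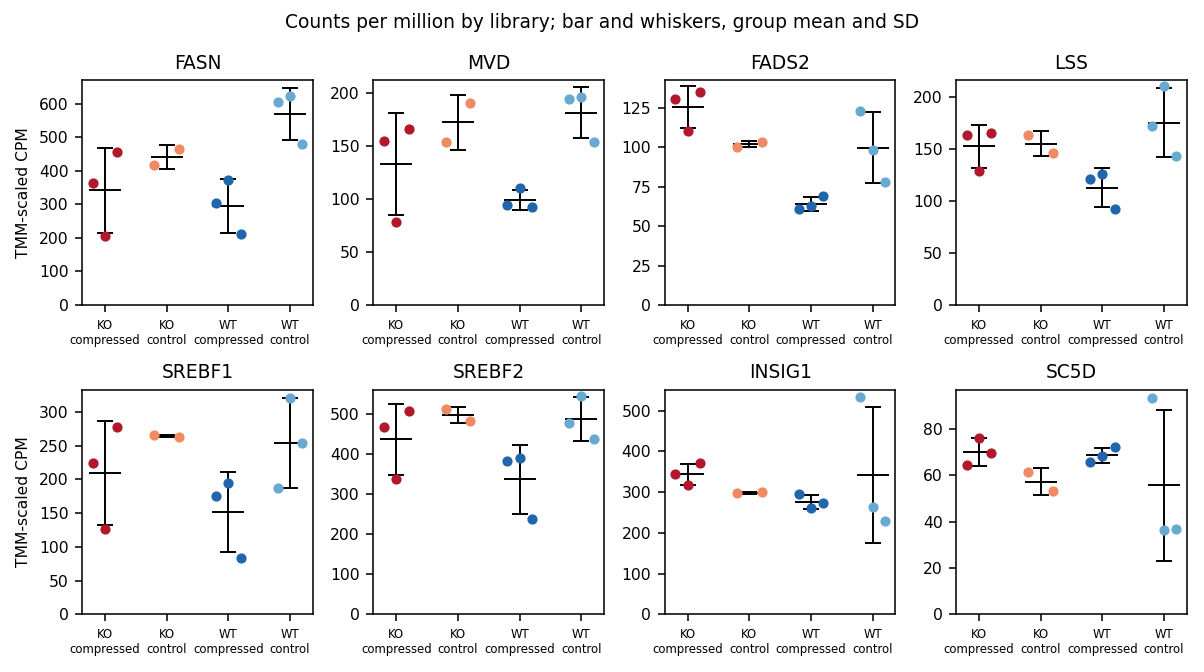
CPM of 8 members in each library, 1 point per library, with the group mean as a bar; groups run from KO compressed at left to WT control at right and each vertical axis starts at 0. FASN, MVD and FADS2 are lower in all 3 WT compressed libraries than in any WT control; INSIG1 and SC5D have 1 WT control far above the rest.

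A single control library held much of the spread among the WT controls. WT control replicate 1 was above the mean of the 11 libraries for 28 of the 34 loci, while the WT compressed libraries were above it for 6 to 9. It was above the other WT controls by over 0.5 on the log2 scale in 9 of the 34 loci, where 15.7% of all genes were. SC5D, the lathosterol oxidase, was at 93.3 CPM there and at 36.6 and 36.8 CPM in the other WT controls, a log2 difference of 1.33. FDFT1, the squalene synthase, differed by 1.15, INSIG1 by 1.12, HMGCS1 by 0.90, SQLE by 0.76, CYP51A1 by 0.74 and IDI1, the isopentenyl diphosphate isomerase, by 0.73. SREBF1 lay on the other side, at -0.62. Left without that library, the log2 fold changes for compression in WT cells were 0.35 for HMGCS1, 0.25 for SQLE and 0.17 for INSIG1, all turned in sign. SC5D was then the only 1 of the 34 members called, and it was higher, at 0.90 (edgeR adjusted p = 0.0182), against 0.31 with all libraries. In that fit 914 of all 13504 genes tested were called higher and 465 lower. SC5D had 65.6, 68.3 and 72.0 CPM in the WT compressed libraries, so against the other 2 controls alone the groups were far apart.

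A pair of compressed libraries was lower than the rest of its group in some members. Loci lower by over 0.5 on the log2 scale were counted. WT compressed replicate 3 was lower than the other WT compressed libraries in 9 of 34, where 18.1% of all genes were. KO compressed replicate 2 was lower than the other KO compressed libraries in 9 of 34, about the same share as the 26.4% of all genes. That library was above the mean of the 11 libraries for 17 of 34 loci. WT compressed replicate 3 was above it for 8, against 9 and 6 in WT compressed replicates 1 and 2. Of the lower loci, 6 were shared: SREBF1, SREBF2, SCAP, FASN, PMVK and the NPC1L1 locus of 2454 bases. SREBF1 was at -1.14 in WT compressed replicate 3 and at -0.99 in KO compressed replicate 2, and FASN at -0.67 and -0.99. MVD had its lowest level of the study, 78.1 CPM, in KO compressed replicate 2, against 155 and 166.5 CPM in the other KO compressed libraries. These libraries also had the lowest rho with local gene density, at -0.33 and -0.37. What part the gradient has in these members was not tested.

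Where the members sit on the chromosomes was used by no step in choosing them. In the WT comparison, Spearman's rho between log2 fold change and the number of genes within 500 kb was -0.38 over the 34 member loci and -0.39 over all 13560 genes, a description in which genes share libraries and neighbourhoods. FASN has 48 genes within 500 kb and SC5D has 5. The 13 member loci with more than 18 such genes had a median of -0.40, against -0.28 for all genes of that density, both as log2 fold changes. The 21 member loci with 18 or fewer had a median of -0.24, against 0.20 for all genes of that density, and 17 of these 21 were below 0. The density count of the 2 NPC1L1 loci, which lie on short unplaced scaffolds, is limited by scaffold length.

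**Figure D3:**
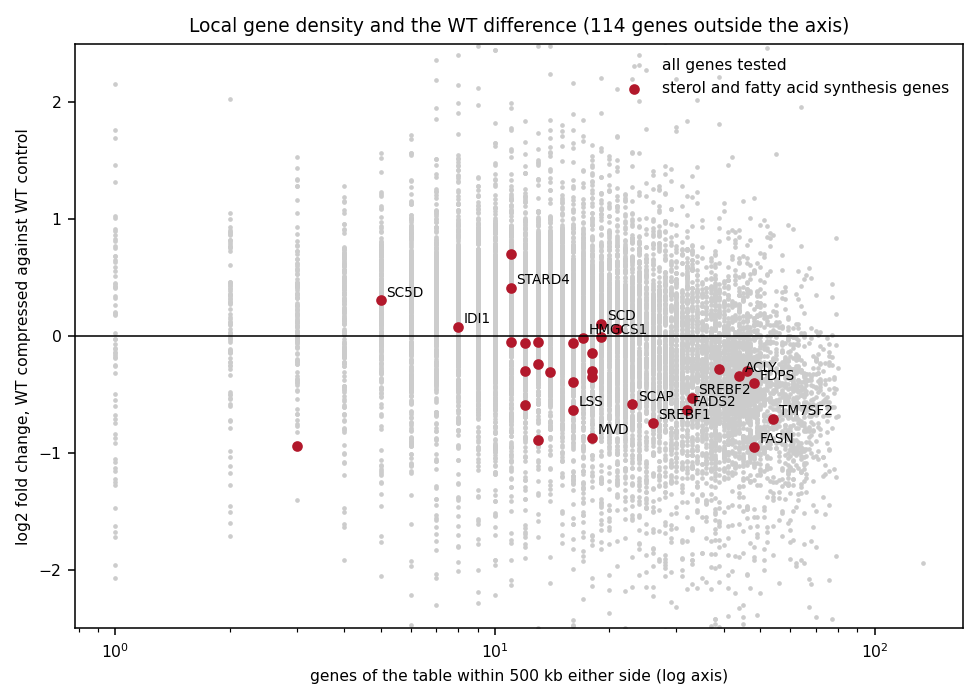
Log2 fold change of WT compressed over WT control cells against the number of genes within 500 kb, on a log axis, for all tested genes (grey, 114 outside the vertical range) and the 34 member loci (coloured). Both the grey cloud and the members slope downwards, with rho of -0.39 and -0.38.

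In LMNA KO cells the same treatment gave no call among the members, or among all 13560 genes (0%). With only 2 control libraries this comparison had less to go on than that in WT cells. By edgeR's quasi-likelihood test no member reached an unadjusted p under 0.05, against 6.11% of all genes, and DESeq2 called no member either. The log2 fold changes had a median of 0.01 over the 34 loci, 18 above 0 and 16 below, against -0.004 over all genes.

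FADS2 had 130.4, 110.0 and 135 CPM in KO compressed cells and 100.4 and 103 CPM in KO controls. All KO compressed libraries were above both controls, but the log2 fold change of 0.30 ± 0.19 did not pass (SE, n = 3 and 2; edgeR adjusted p = 0.773). SQLE had 440.4, 460.1 and 408 CPM in KO compressed cells and 369 and 302 CPM in KO controls, at 0.38 ± 0.22 on the log2 scale (SE, n = 3 and 2). ACAT2 had 212.5, 169 and 178.5 CPM in KO compressed cells and 159.9 and 152 CPM in KO controls, at 0.26 ± 0.16, and FDFT1 had 283, 255.5 and 247 CPM in KO compressed cells and 210.4 and 179.6 CPM in KO controls, at 0.43 ± 0.29 (SE, n = 3 and 2). With INSIG1, IDI1, SC5D and STARD4, these made 8 loci with compressed libraries wholly above controls, where 13.5% of all genes were. PMVK, the phosphomevalonate kinase, was the 1 locus wholly below, where 14.0% of all genes were. INSIG1 had 344, 319 and 371 CPM in KO compressed cells and 297 and 299.7 CPM in KO controls.

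FASN had 362, 207 and 456.5 CPM in KO compressed cells and 416 and 465 CPM in KO controls, at -0.37 ± 0.28 on the log2 scale, and MVD had 155, 78.1 and 166.5 CPM in KO compressed cells against 154 and 191 CPM in KO controls, at -0.37 ± 0.26 (SE, n = 3 and 2). In both, KO compressed replicate 2 was the lowest and the other compressed libraries were near the controls. SREBF1 had 224, 126 and 278 CPM in KO compressed cells and 265 and 263 CPM in KO controls, and SREBF2 had 468, 339 and 508 CPM in KO compressed cells and 513 and 484 CPM in KO controls, again with replicate 2 lowest. HMGCS1 had 213.5, 312 and 354 CPM in KO compressed cells and 280.5 and 216.5 CPM in KO controls, with replicate 2 between the other compressed libraries. LSS and SCD overlapped between these groups.

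Without compression, LMNA KO and WT cells were not told apart in any member, which with 2 and 3 libraries does not show equal levels. The values also leaned on WT control replicate 1. Without it, SC5D was at 0.64 and HMGCS1 at 0.63 on the log2 scale, against 0.05 and 0.26 with all libraries. The longer NPC1L1 locus was at -0.46, against -0.43. No member passed the test in KO control against WT control cells, where 0.339% of all genes did, and none reached an unadjusted p under 0.05, where 7.79% of all genes did (edgeR quasi-likelihood test). The median log2 fold change was -0.08, against -0.01 over all genes. FASN, with 416 and 465 CPM in KO controls and 604, 624 and 480 CPM in WT controls, was at -0.37 ± 0.29, and ACLY, with 705 and 654 CPM in KO controls and 946, 736.5 and 692 CPM in WT controls, was at -0.22 ± 0.16 (SE, n = 2 and 3). FASN's KO libraries lay below all WT libraries, as did those of FDPS, MVK, SCAP and the longer NPC1L1 locus, 5 loci in all where 15.0% of all genes were; EBP, the sterol isomerase, was the 1 locus wholly above, where 16.9% of all genes were. FADS2 was nearly level, at 0.03 ± 0.19 on the log2 scale (SE, n = 2 and 3).

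Between KO compressed and WT compressed cells, FADS2 was the 1 member that passed. It had 130.4, 110.0 and 135 CPM in KO compressed cells and 60.7, 62.9 and 69.1 CPM in WT compressed cells, with a wide gap between the groups. The log2 fold change was 0.96 ± 0.17, a fold of 1.95 (SE, n = 3 and 3; edgeR adjusted p = 0.0185). It was 1 of 34 loci called higher and none lower, where 0.509% of all genes were called higher and 0.789% in either direction. Over the 11 fits that each left out 1 library the log2 fold change ran from 0.90 to 1.05. The call remained in 6 of them and was lost without each of WT compressed replicates 1, 2 and 3 and KO compressed replicates 1 and 3, with an edgeR adjusted p of up to 0.128. Without KO compressed replicate 2, 3 members were called, among 349 of all genes. With the density trend removed the log2 fold change of FADS2 was 0.91 (edgeR adjusted p = 0.0261).

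Counting FADS2, 29 of the 34 loci had log2 fold changes above 0 in KO compressed against WT compressed cells. The median was 0.28, against -0.01 over all genes tested. At an unadjusted p under 0.05, 7 loci, FADS2 among them, were higher and none lower, where 6.79% of all genes were higher and 4.49% lower. The next smallest p-values after FADS2 belonged to EBP, NPC1 and NSDHL, an enzyme of sterol demethylation, and none passed the adjusted threshold. EBP had 101.3, 65.1 and 90.9 CPM in KO compressed cells and 55.5, 58.9 and 69.6 CPM in WT compressed cells, overlapping through KO replicate 2, at 0.48 ± 0.17 (SE, n = 3 and 3; edgeR adjusted p = 0.276). NPC1 had 38.0, 47.9 and 62.6 CPM in KO compressed cells and 30.9, 38.4 and 22.0 CPM in WT compressed cells, barely overlapping, at 0.70 ± 0.26 (SE, n = 3 and 3; edgeR adjusted p = 0.285). NSDHL had 63.0, 51.0 and 56.9 CPM in KO compressed cells and 44.6, 43.9 and 39.2 CPM in WT compressed cells, with no overlap, at 0.42 ± 0.16 (SE, n = 3 and 3; edgeR adjusted p = 0.326). The groups were apart with KO higher for 10 loci and KO lower for none, where 7.92% and 7.82% of all genes were. They were FADS2, NSDHL, FDFT1, LSS, the sterol reductases TM7SF2 and HSD17B7, HMGCS1, SQLE, INSIG1 and ACLY. Sterol enzymes were 7 of these 10, and 18 of the 34 tested loci.

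**Figure D4:**
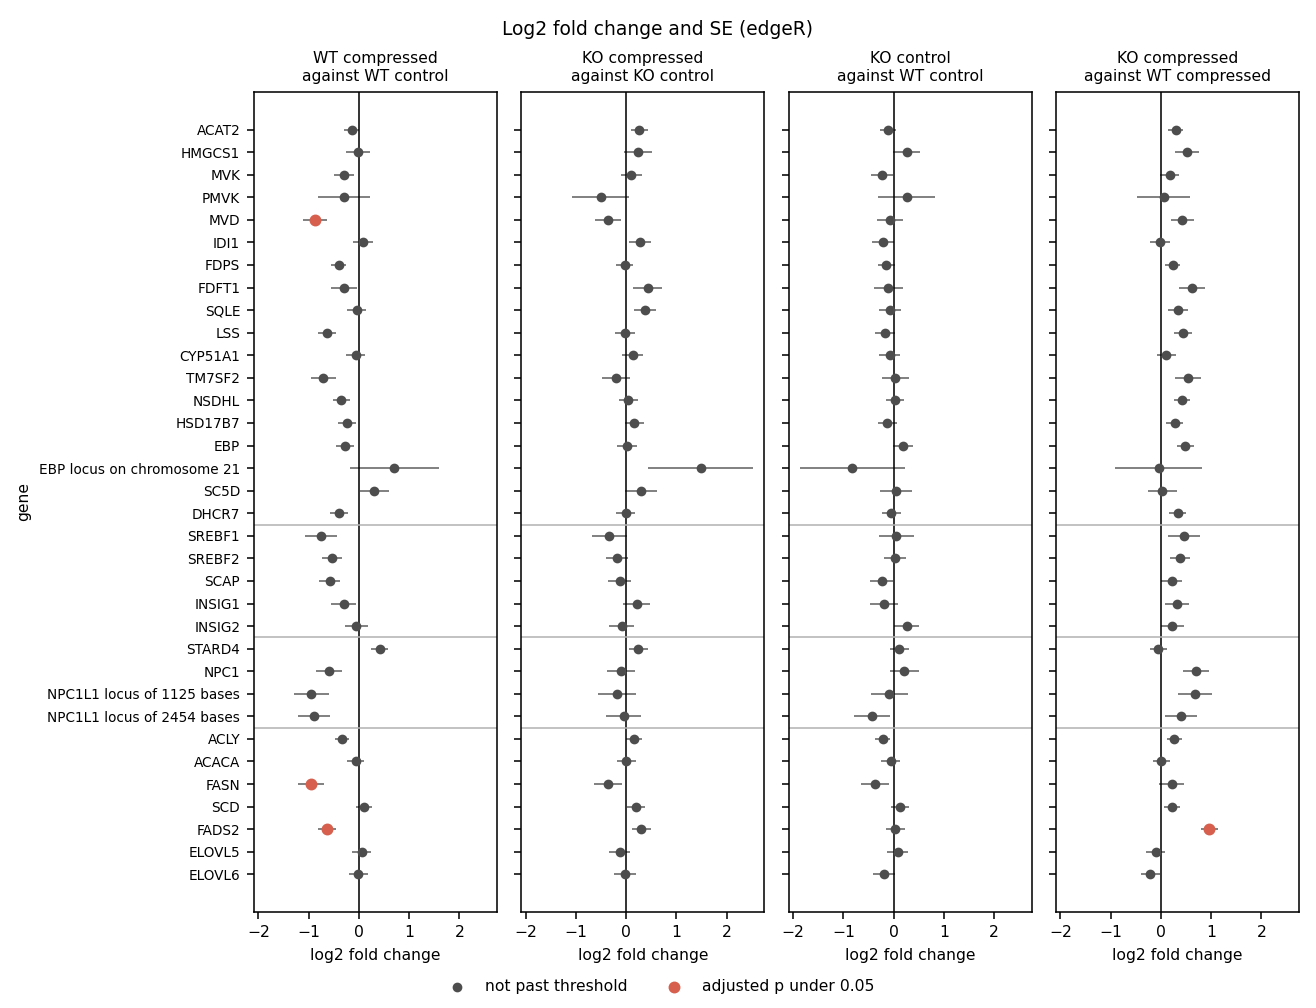
Log2 fold change of each of the 34 loci, with 1 SE on each side, in 4 panels, 1 for each comparison between groups; red points passed the test. In KO cells 18 of 34 points lie right of 0 and 16 left, in WT cells 28 lie left, and between compressed groups 29 lie right.

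The difference between the genotypes in their response was tested as an interaction, the log2 fold change for compression in KO cells minus that in WT cells. No member passed, nor did any other of the 13560 genes (0%). At an unadjusted p under 0.05 there were 3 loci, all higher in KO cells, where 4.79% of all genes were in either direction, 2.53% higher and 2.26% lower. These were FADS2 at 0.93 ± 0.26 (unadjusted p = 0.00309), ACLY at 0.49 ± 0.21 and LSS at 0.61 ± 0.27 (SE, 11 libraries; edgeR adjusted p = 0.939 for each). FDFT1 came next at 0.73 ± 0.38. ACLY had 753, 693 and 812 CPM in KO compressed cells and 705 and 654 CPM in KO controls, and 604, 633 and 637 CPM in WT compressed cells and 946, 736.5 and 692 CPM in WT controls. The interaction was above 0 for 28 of 34 loci, with a median of 0.40, against 0.01 over all genes. Since it shares its WT compressed libraries with both the WT comparison and that between compressed groups, these medians are not separate observations. The absence of calls in KO cells is thus not shown to be a different response.

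Other genes of lipid handling were taken from lists by function. Of 20 tested loci of a further list of sterol genes, 2 were lower and none higher in WT compressed against WT control cells, where 2.40% of all genes were lower, with a median of 0.11 on the log2 scale, and none was called in any other comparison. Of 22 loci for other fatty acid and glycerolipid synthesis genes, 1 was called higher in that comparison, where 3.85% of all genes were, and none elsewhere. It was GPAM, a glycerol-phosphate acyltransferase, with 78.5, 71.3 and 76.6 CPM in WT compressed cells and 44.3, 42.2 and 56.4 CPM in WT controls, which were apart, at 0.66 ± 0.18 (SE, n = 3 and 3; edgeR adjusted p = 0.0482). The median of that list was -0.17 in WT cells.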

How the data were processed

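RNA from 11 dog MDCKII libraries was sequenced by poly(A) selection. The authors deposited tables of read counts per gene and of FPKM; per the submitters' processing notes CASAVA, FastQC and HISAT2 2.0.5 with the build CanFam3.1 were used, while no source used here gives the gene counter or strand setting, so overlapping genes cannot be told apart. The deposited FPKM values were used for levels between genes alone; the size of the library implied by them was 0.964 to 1.05 of the count total. Members were matched by gene name (28 loci), description (8) or an older symbol (1); the names and the lists were chosen with earlier results of these data known. EBP's main locus, on chromosome X, was assembled by the authors.

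For tests, edgeR 4.0.16 under R 4.3.3 took the deposited counts through filterByExpr, TMM scaling and a quasi-likelihood fit of all 4 groups with 7 residual degrees of freedom, with Benjamini-Hochberg adjusted p under 0.05 over 13560 genes as a call. CPM is a count scaled to the TMM-adjusted library total; SE is the log2 fold change divided by the square root of F. The fit was also run on simulated counts, as a check of the calculation alone. Those counts had the same spread for every gene and no gradient with gene density, unlike these libraries. Genes given by library are members called in any comparison, the 4 with the smallest p in each, and SREBF1, SREBF2, INSIG1, HMGCS1, SQLE, FASN and SCD; others named were chosen after their values were seen. The 2 called genes of the further sterol list are given as a count. Alternatives were no filter, RLE scaling, scaling by library size, DESeq2 1.42.0, the compared groups alone, a replicate block and leaving out each library. Leaving out 2 or 3 libraries that stood apart and removing the trend with local gene density were added after seeing the data. Replicates of a group differed beyond sampling noise, with a chi-square per gene of at least 6.09. Correlations of same-numbered libraries' deviations in WT cells were -0.12, 0.20 and 0.01, so the numbers were not taken as pairs.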

Additional observations from a re-analysis of the deposited data

Results flagged for a closer look

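The compressed libraries of FADS2 lay on opposite sides of their controls in the 2 genotypes. All 3 KO compressed libraries (110.0 to 135 CPM) lay above both KO controls (100.4 and 103 CPM), as in 13.5% of all genes. That difference, 0.30 on the log2 scale, was not called (edgeR adjusted p = 0.773), so a rise in KO cells is not shown. All 3 WT compressed libraries (60.7 to 69.1 CPM) lay below all 3 WT controls (78.0 to 123 CPM), as in 20.8% of all genes. The interaction, compression in KO minus compression in WT cells, was 0.93 on the log2 scale (unadjusted p = 0.00309; edgeR adjusted p = 0.939), so the difference did not pass the test across all genes. Single libraries were not tested as far from the rest of their group, since each group held 2 or 3.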

How the results depend on the processing

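In WT cells 848 genes and 3 members were called; genes were 1754 with no filter, 2476 with DESeq2, 2069 with the groups alone, 3497 without 3 libraries that stood apart and 469 with the density trend removed, and 0 to 3066 over fits leaving out 1 library. Members were 1 by library size alone, 8 with DESeq2, 6 with the groups alone, 8 without the 3 libraries, 0 with density removed and 0 to 9 leaving out 1, most without KO compressed replicate 2. In KO cells 0 genes were called (828 at an unadjusted p under 0.05), 1 with DESeq2, 13 without the 3 libraries and 0 leaving out any 1. Between controls, 46 genes became 90 with no filter, 125 with DESeq2, 111 without the 2 compressed libraries, 802 without 3 and 6 to 106 leaving out 1; 1 member, SC5D, was called without the 3. Between compressed groups, 107 genes became 201, 352, 64 with the groups alone, 723 without 3 and 39 to 349 leaving out 1; members were 2 (FADS2 and EBP) without the 2 libraries, 4 without the 3 and 0 to 3 leaving out 1. The interaction had 362 genes and 1 member, FADS2, without the 3, and 0 to 1 genes leaving out 1. Signs turned in WT cells for 3 of the 10 genes given by library there. Leaving out 1 library, the log2 fold change of SQLE ran from -0.189 to 0.252, that of INSIG1 from -0.526 to 0.170 and that of HMGCS1 from -0.211 to 0.350, highest without WT control replicate 1 and lowest without WT control replicate 3. Without the 3 libraries they were 0.18, 0.18 and 0.36, and HMGCS1 was at 0.011 with the block. Other members turned in sign too. Without WT control replicate 1 these included FDFT1 at 0.19, CYP51A1 at 0.23, ACACA at 0.11 and ELOVL6 at 0.09. Without WT compressed replicate 3 they included IDI1 at -0.03. With density removed they included ACLY at 0.015, EBP at 0.04 and PMVK at 0.12, while FDPS went from -0.40 to 0.0. Of 516 values for single genes under an alternative, 456 kept their sign and their side of the threshold, 39 lost and 12 gained a call with the same sign, and 9 reversed. The cause was not tested.

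With the replicate number as a block, 0 genes and 0 members were called in WT cells, 15 genes between controls and 53 genes and 0 members between compressed groups, where FADS2 was at 0.96 (edgeR adjusted p = 0.0708). Same-numbered libraries did not deviate together, so this pairing has only a shared number behind it. Loci with few reads, such as FADS1, PMVK and the extra EBP loci, allow no firm statement.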

Other observations

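Genes that carry cholesterol out of cells and genes that burn fatty acids were looked at beside the synthesis genes. Of 9 tested loci for liver X receptors and cholesterol efflux, 1 was called: ABCA1, the transporter that loads cholesterol onto apolipoproteins, in KO compressed against WT compressed cells, where 0.509% of all genes were called higher. It had 11.7, 13.7 and 16.2 CPM in KO compressed cells and 4.84, 4.83 and 2.12 CPM in WT compressed cells, with a wide gap, at 1.81 ± 0.33 on the log2 scale (SE, n = 3 and 3; edgeR adjusted p = 0.0204). The controls were 14.8 and 14.1 CPM in KO cells and 8.82, 4.50 and 5.92 CPM in WT cells, so the genotypes did not overlap there either, although ABCA1 was not called. The median log2 fold change of these 9 loci was 0.37 in KO compressed against WT compressed cells and -0.40 in WT compressed against WT control cells.

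Of 18 tested loci for fatty acid oxidation, 1 was called in any of the 5 comparisons, higher in WT compressed cells, where 3.85% of all genes were. ACADM, the medium-chain acyl-CoA dehydrogenase, had 237, 199 and 271 CPM in WT compressed cells and 166, 118 and 131 CPM in WT controls, which were apart, at 0.77 ± 0.21 (SE, n = 3 and 3; edgeR adjusted p = 0.0475). The list's median was 0.13 in that comparison.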
